A study of Homo sapiens with 12 samples.

Results

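CD44 is a cell surface glycoprotein that binds hyaluronan, and its pre-mRNA holds a block of variable exons between 2 groups of constant exons. The events described here are those on the plus strand of chromosome 11 whose exon starts between 35.16 and 35.254 Mb (hg19) and whose exon and flanking intron lengths match CD44 in GENCODE release 29. The rule found 101 of the 116839 events of both tables, namely 99 of 114816 in RNA-seq and 2 of 2023 in RASL-seq. Of the 99, 87 had a variable exon in the middle and 12 a constant one. A further 5 RNA-seq events of the region matched no annotated exon, and their own splice site, 3 bases downstream of the annotated end of v8, carried 0 reads. In an event, a middle exon is either included between 2 flanking exons or skipped.

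The lines compared were GS689.Li, written GS689, and PC3E, both derived from the human prostate cancer line PC3. GS689 is known as a mesenchymal and PC3E as an epithelial derivative. Both are labelled wild type and were grown in DMEM/F12 with serum and G418, plated in 10 cm dishes and harvested after a night. RASL-seq ligates probe pairs across chosen splice junctions and counts the products, and had 3 libraries of each line. RNA-seq also had 3 libraries of each line, but its table holds 2 numbered sets of 3 libraries, and its header names no line for either. RNA-seq values are therefore given per library and set, with no test, and no set was matched to a line from its values. The labels do not say that replicates came from separate cultures, so the p-values may measure technical spread only.

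CD44 transcripts that skip every variable exon encode the standard form, which is found in most cell types, whereas forms with variable exons are typical of epithelia. The variable exons encode a stretch of the extracellular stem near the membrane that carries much of the glycosylation. v3 holds a serine-glycine motif to which heparan sulfate is attached, v6 is known for its part in signalling through the MET receptor, and v8 to v10 together make the epithelial form CD44E. The splicing factors ESRP1 and ESRP2 are known to promote their inclusion in epithelial cells.

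Exons were named by rank in an annotated transcript of 18 exons, CD44-208, as C1 to C5, v2 to v10 and C6 to C9. C5 lies at chr11:35211382-35211612 and C6 at chr11:35236399-35236461 on hg19. The 9 variable exons between them are all coding and all have a length in whole codons. Together v2 to v10 span 1143 nt or 381 codons, v3 to v7 span 618 nt and v8 to v10 span 396 nt or 132 codons. The exons to which C5 was most often joined, and the 2 that follow v8, are shown first, from the plus strand of GENCODE release 29 transcripts with positions on hg19. Capitals in v3 mark the bases of the serine-glycine motif, from base 81 to 92 of the exon.
v3, chr11:35219668-35219793: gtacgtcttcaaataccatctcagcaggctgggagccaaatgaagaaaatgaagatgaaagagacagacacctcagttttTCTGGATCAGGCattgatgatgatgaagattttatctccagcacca
v6, chr11:35226059-35226187: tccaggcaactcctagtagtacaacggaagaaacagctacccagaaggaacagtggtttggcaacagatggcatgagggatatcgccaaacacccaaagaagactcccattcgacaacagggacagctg
v8, chr11:35229652-35229753: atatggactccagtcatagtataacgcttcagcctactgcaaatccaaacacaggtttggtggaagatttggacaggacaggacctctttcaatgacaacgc
v9, chr11:35231512-35231601: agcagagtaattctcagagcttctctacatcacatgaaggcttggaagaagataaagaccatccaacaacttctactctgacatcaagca
v10, chr11:35232793-35232996: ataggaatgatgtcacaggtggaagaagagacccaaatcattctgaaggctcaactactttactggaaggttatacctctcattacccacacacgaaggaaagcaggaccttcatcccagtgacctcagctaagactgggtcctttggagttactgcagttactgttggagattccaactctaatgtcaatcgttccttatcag

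The junctions on which most of the following values rest are shown with 20 bases from each exon, the downstream exon in capitals. The first is the junction of the standard form, which passes over every variable exon.
C5-C6: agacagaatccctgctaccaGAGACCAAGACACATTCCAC
C5-v3: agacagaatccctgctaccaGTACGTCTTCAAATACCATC
C5-v8: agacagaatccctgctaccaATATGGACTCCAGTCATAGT
C5-v10: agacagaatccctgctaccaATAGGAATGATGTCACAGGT
v10-C6: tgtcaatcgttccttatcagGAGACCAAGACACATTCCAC
v3-C6: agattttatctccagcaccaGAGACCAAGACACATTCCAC
v6-C6: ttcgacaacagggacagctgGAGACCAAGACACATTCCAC

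The RASL-seq libraries held 954120, 848241 and 615758 counts in GS689 and 848150, 754338 and 911476 in PC3E. The RNA-seq events overlap and share reads, so no depth can be had from their sum, and junction counts are given instead. In each assay 1 library stood apart in its inclusion shares. Set 1 library 2 of RNA-seq differed from libraries 1 and 3 of its set with a chi-square per degree of freedom of 6.28 and 4.73, against 2.55 between these and 2.09 to 2.48 within set 2. PC3E replicate 2 of RASL-seq differed from replicates 1 and 3 with 6.33 and 4.41, against 2.27 between these and 1.77 to 2.28 within GS689. On CD44 variable exon events the values with set 1 library 2 were 34.6 and 24.6, against 5.45 between the other 2 libraries of the set. CD44-AS1 is annotated on the opposite strand and overlaps CD44, and the sources used here do not say whether counting used the strand.

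In RNA-seq, CD44 was read at similar depth upstream of the variable block in both sets, while junctions with a variable exon were far rarer in set 2. The number of reads on the junction from C4 to C5, upstream of the variable block, was 3302, 2947 and 3205 in set 2 and 2984, 2237 and 2920 in set 1. That from C1 to C2 was 2060, 1991 and 2066 in set 2 and 2317, 1385 and 2500 in set 1. The ranges of the sets overlapped at both junctions, and set 1 library 2 was lowest at both. Downstream of the block set 2 was higher. Inclusion counts of C7 between C6 and C8 were 5696, 5161 and 5840 in set 2 and 4727, 4766 and 4555 in set 1. Junctions with a variable exon at 1 or both ends summed to 421, 370 and 452 reads in set 2, against 13655, 9527 and 13427 in set 1. The summed counts of set 2 were thus 0.03395 times those of set 1 on these junctions, against 1.161 times from C4 to C5. In bulk samples, fewer cells of a type and less RNA per cell cannot be told apart.

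The standard junction C5 to C6 took 95.66%, 95.43% and 95.61% of the reads leaving C5 in set 2, with 3681, 3194 and 3637 reads. In set 1 it took 14.87%, 19.60% and 16.67%, with 398, 465 and 436 reads. The sets did not overlap, and the 95% Wilson intervals were 94.67% to 96.26% over set 2 libraries and 13.57% to 21.25% over set 1 libraries. All Wilson intervals here cover counting error only. Any variable exon received 4.21%, 4.51% and 4.36% in set 2 and 85.1%, 80.35% and 83.33% in set 1.

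Among the variable exons, v8 was the acceptor of C5 with most reads over set 1, and v10 over set 2. C5 was joined to v8 in 0.39%, 0.239% and 0.578% of its junction reads in set 2, on 15, 8 and 22 reads. In set 1 it was joined to v8 in 30.78%, 51.9% and 34.02%, on 824, 1231 and 890 reads. Every set 1 library was above every set 2 library, and set 1 library 2 was highest. Joining to v3, the exon with the heparan sulfate motif, was 0.962%, 0.807% and 0.815% in set 2 and 29.06%, 11.72% and 27.71% in set 1. Joining to v6 was 0.884%, 0.837% and 0.605% in set 2 and 14.19%, 6.45% and 8.60% in set 1. At v3 and v6 set 1 library 2 was the lowest of its set. Joining to v10 was the exception, since the sets overlapped, with 1.87%, 2.45% and 2.21% in set 2 and 1.42%, 4.09% and 1.45% in set 1. Without set 1 library 2 they no longer overlapped, and set 2 was above set 1. C5 to v9 had 0 reads in each set 2 library and 75, 64 and 85 in set 1. The junction from C5 to v5 had at most 2 reads in any library.

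**Figure D1:**
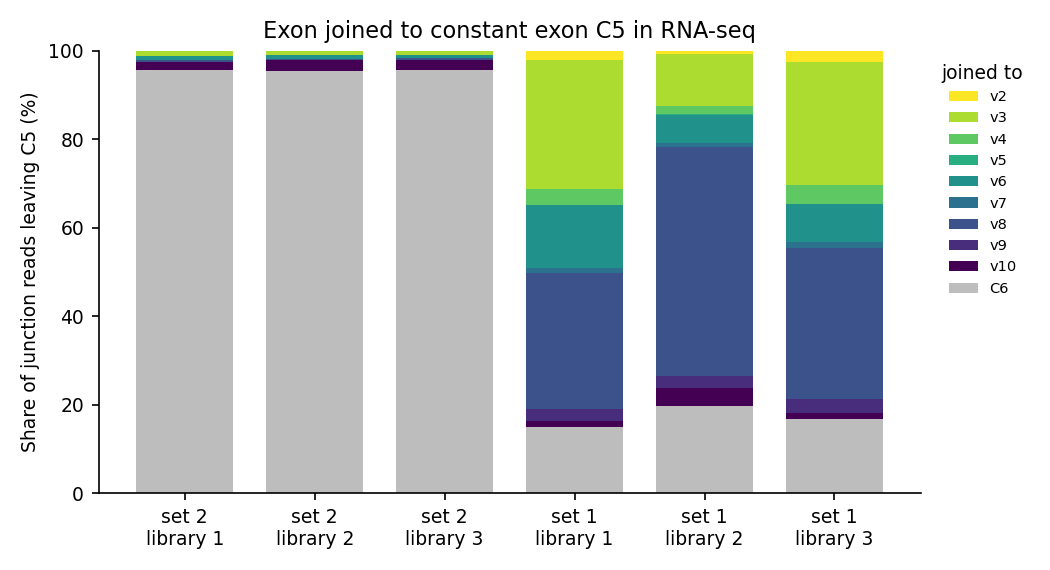
Share of junction reads leaving constant exon C5 (vertical axis, percent) by the exon joined to it (colours), for each RNA-seq library (horizontal axis). C6, in grey, takes over 95% in the 3 libraries of set 2 and 14.87% to 19.60% in set 1, where v8 and v3 are the largest coloured parts.

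At the other end of the block, reads that entered C6 from a variable exon came nearly all from v10 in set 1. The junction v10 to C6 took 3.37%, 3.03% and 4.30% of the reads entering C6 in set 2, with 132, 102 and 167 reads. In set 1 it took 84.12%, 80.78% and 83.13%, with 2342, 2123 and 2355 reads. C6 was the only exon listed after v10, so reads from v10 to any other exon were not measured. All other junctions from a variable exon into C6 took at most 1.185% of the reads entering it in any library.

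Inclusion over all paths was then taken for each variable exon as the mean of the reads entering and leaving it, divided by that mean plus the reads of junctions that pass over it. It was lower in every set 2 library than in every set 1 library for all 9 exons. v8 was included in 0.707%, 0.754% and 0.795% of paths in set 2 and 79.43%, 73.32% and 77.47% in set 1. v9 was included in 0.605%, 0.489% and 0.692% in set 2 and 80.69%, 74.58% and 80.30% in set 1. v10, the exon next to C6, was included in 2.90%, 3.09% and 3.56% in set 2 and 82.62%, 79.93% and 82.27% in set 1. In both sets v10 had the highest median inclusion of the 9 exons. The ratio of the set 1 to the set 2 median was 26.67 for v10, against 102.7 for v8 and 132.7 for v9.

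The exons from v3 to v7 reached lower levels in set 1 than v8 to v10 and varied more between its libraries. v3 was included in 0.796%, 0.839% and 0.728% of paths in set 2 and 31.74%, 13.58% and 30.73% in set 1. v6, the exon linked to MET signalling, was included in 0.798%, 0.827% and 0.689% in set 2 and 46.16%, 19.57% and 41.15% in set 1. v4 was included in 0.116%, 0.28% and 0.078% in set 2 and 33.32%, 12.35% and 33.22% in set 1. Its set 2 median of 0.116% became 0.179% without library 1 and 0.198% without library 3. Median inclusion of v5 and v7 was 0.177% and 0.245% in set 2 and 33.77% and 39.35% in set 1. Set 1 library 2 was lowest at each of v3 to v7, at 12.35% to 19.57%, and nearer to the others at v8 to v10. v2 was the least included, at 0.0128%, 0.0147% and 0.0519% in set 2 and 1.42%, 0.588% and 2.27% in set 1, and only 3 reads joined C5 to it over the 3 libraries of set 2.

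**Figure D2:**
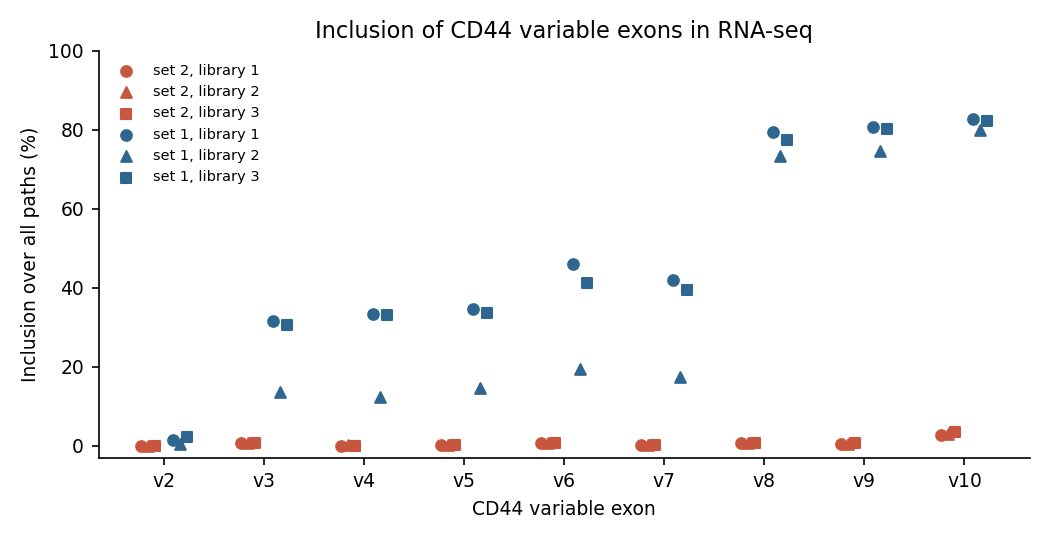
Inclusion over all paths (vertical axis, percent) of each CD44 variable exon (horizontal axis) in each RNA-seq library, with colour for the set and marker shape for the library. Set 2 points lie at or under 3.56%, while in set 1 v8 to v10 lie between 73.32% and 82.62%, and library 2 falls below the others at v3 to v7.

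The reads leaving each exon gave the exon joined to it. Reads are given per junction, so combinations along a whole transcript are not seen. A read that crosses both ends of a short exon such as v9 may stand at 2 junctions. In set 1 variable exons were mostly joined to the next one. v3 was followed by v4 in 88.82%, 68.92% and 88.64% of its reads in set 1, and by v8 in 7.85%, 27.84% and 8.08%. v8 was followed by v9 in 99.48%, 98.74% and 99.38%, and v9 by v10 in 98.22%, 99.28% and 98.54%. Set 1 library 2 again differed from the others in the reads leaving v3, with fewer to v4 and more to v8.

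Set 2 had few reads on these exons, and v3 and v6 were often joined to C6 directly. The junction from v3 to C6 had 23, 13 and 22 reads in set 2 and 4, 4 and 6 in set 1. These were 92%, 44.83% and 88% of the reads leaving v3 in set 2, and 0.43%, 1.08% and 0.703% in set 1. The junction from v6 to C6 had 20, 10 and 8 reads in set 2 and 0 in each set 1 library. These were 83.33%, 41.67% and 38.1% of the reads leaving v6 in set 2, where 24, 24 and 21 reads left it. For set 1 the upper Wilson limits of this share were 0.33%, 0.86% and 0.334%. Of 48 junctions with a variable exon and any read, 27 were lower in every set 2 library than in every set 1 library, and 19 overlapped. These are reads not scaled for depth, and no share over the junctions of the whole table was taken, so the counts are a description. Both junctions that were higher in every set 2 library, v3 to C6 and v6 to C6, were named after their values were seen.

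**Figure D3:**
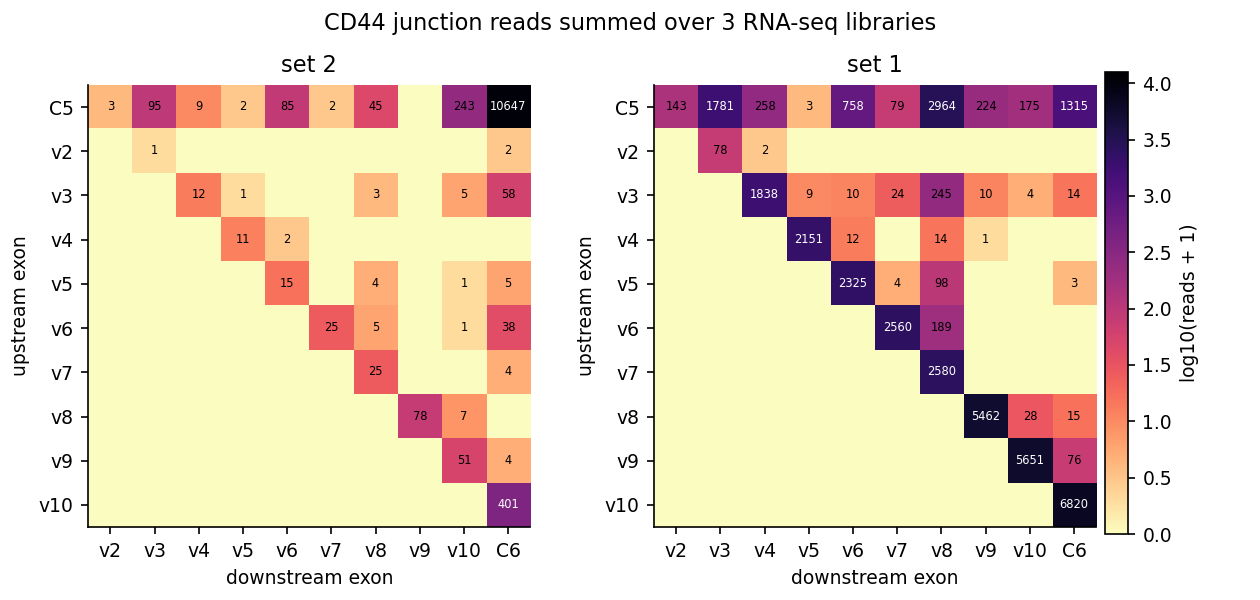
Reads per junction, summed over the 3 RNA-seq libraries of set 2 (left) and of set 1 (right), from the upstream exon (rows) to the downstream exon (columns), with colour as log10(reads + 1). Alternative splice sites of an exon are added to it. In set 1 the diagonal of neighbouring exons is filled down to 6820 reads from v10 to C6, while in set 2 the corner cell C5 to C6 holds 10647 reads.

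v5 and v7 each had a pair of acceptor sites 3 bases apart, so that the longer form adds the bases CAG, the length of 1 codon, at the start of the exon. The variable exons start 1 base into a codon, so these bases cross a codon boundary and are not read as a CAG codon. The first bases of each form are shown, with the added bases in capitals.
v5 long form, chr11:35223215-35223244: CAGatgtagacagaaatggcaccactgctt
v5 short form, chr11:35223218-35223244: atgtagacagaaatggcaccactgctt
v7 long form, chr11:35227659-35227688: CAGcctcagctcataccagccatccaatgc
v7 short form, chr11:35227662-35227688: cctcagctcataccagccatccaatgc

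From v4, the long form of v5 took 55.05%, 63.73% and 59.42% of the reads to both acceptors in set 1, on 921, 306 and 924 reads. In set 2 these acceptors had 7, 3 and 1 reads, too few for a share. From v6, the short form of v7 took 14.37%, 11.87% and 14.01% in set 1, where the 3 Wilson intervals overlapped, and 2 of 25 reads summed over set 2. C5 has a second donor site inside the exon, which carried 1.23%, 1.39% and 1.20% of the C5 to C6 reads in set 2 and 0.995%, 1.69% and 0.909% in set 1. The sets overlapped at this donor.

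Inclusion as a single event gives depended on which flanking exons the event compares. With C5 and C6 as flanks, v8 was included in 0.203%, 0.125% and 0.302% in set 2 and 50.89%, 57.22% and 50.54% in set 1. With C5 and v10 the values were 9.43%, 7.87% and 12.04% in set 2 and 91.64%, 86.46% and 92.22% in set 1. With C5 and v9 they were 100% in each set 2 library, on only 41, 29 and 53 inclusion and 0 skipping counts. In set 1 they were 94.78%, 95.74% and 94.29%, so that set 2 lay above set 1, though on few counts. The same turn was seen for v3, at 0.808%, 0.622% and 0.723% in set 2 and 49.56%, 23.27% and 45.6% in set 1 between C5 and C6. Between C5 and v8 it was 55.88%, 64.44% and 41.33% in set 2 and 34.05%, 13.4% and 30.85% in set 1. An event counts only reads that join its 3 exons to each other. With v9 as flank the C5 to C6 reads do not enter, and with C6 as flank the v8 to v9 reads do not. In set 1 library 1 the v8 event with C5 and C6 had 825 inclusion reads, while 1902 reads joined v8 to v9.

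**Figure D4:**
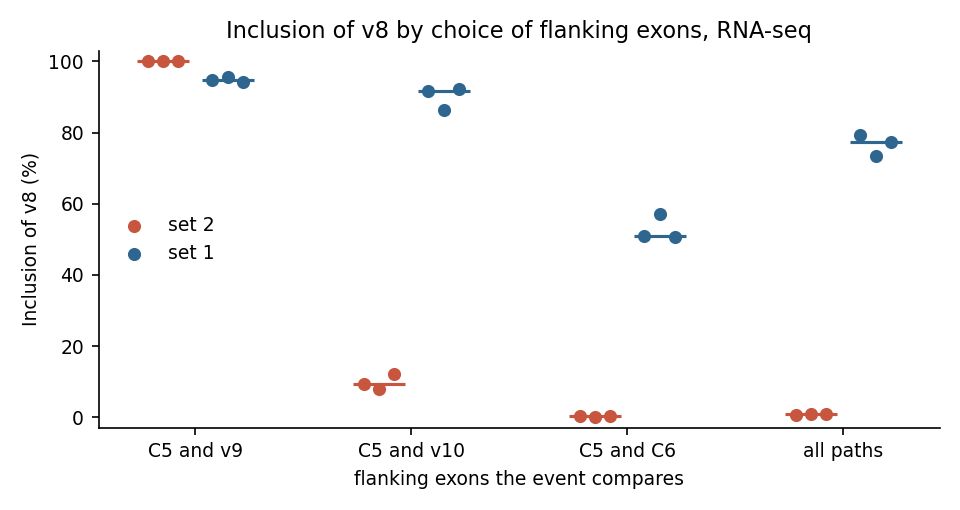
Inclusion of v8 (vertical axis, percent) in each RNA-seq library by the flanking exons the event compares, and over all paths (horizontal axis), with lines at the set medians. Set 2 points lie at 100% beside C5 and v9 and under 1% beside C5 and C6.

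Of the 87 events of variable exons, 46 had at least 10 counts in each library. In 21 of these (45.7%) all set 2 libraries were below all set 1 libraries with medians at least 5 percentage points apart, against 1.71% of the 96069 events of the whole table. In 4 set 2 was above set 1, against 1.28% of the table, and 21 met neither rule. These counts are a description, since the events of a gene share junctions. The 4 with set 2 above were C5-v8-v9, C5-v3-v8, C5-v3-v9 and C5-v6-v8, each named by its upstream, middle and downstream exon. C5-v3-v9 rested on 37, 27 and 31 inclusion and 0 skipping counts in set 2, and C5-v8-v9 also had 0 skipping counts there. Without set 1 library 2, 22 events were below. Of the 12 events of constant exons 11 had 10 counts in each library, and none met either rule: their inclusion was 99.48% or more in every library. The other 41 events of variable exons had fewer than 10 counts in at least 1 library.

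In RASL-seq, where the lines are named, CD44 junctions into variable exons were nearly absent from GS689. The table measured 4 of them, all from C5, in the events C5-v8-v9 and C5-v2-v3, and not the standard junction C5 to C6. C5 to v8 had 1, 0 and 1 counts in GS689 and 70, 96 and 83 in PC3E. The groups did not overlap, and the ratio of PC3E to GS689 per total count was 119.8 with an exact counting interval of 32.81 to 994.3. C5 to v3 had 0, 1 and 1 counts in GS689 and 12, 5 and 3 in PC3E, a ratio of 9.62 (2.34 to 84.9) with PC3E on top. C5 to v9 had 0 counts in each GS689 library and 5, 3 and 1 in PC3E, at least 2.89-fold lower in GS689 if its 3 libraries together are given 3 counts. C5 to v2 had 0 counts in each GS689 library and 0, 1 and 0 in PC3E.

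**Figure D5:**
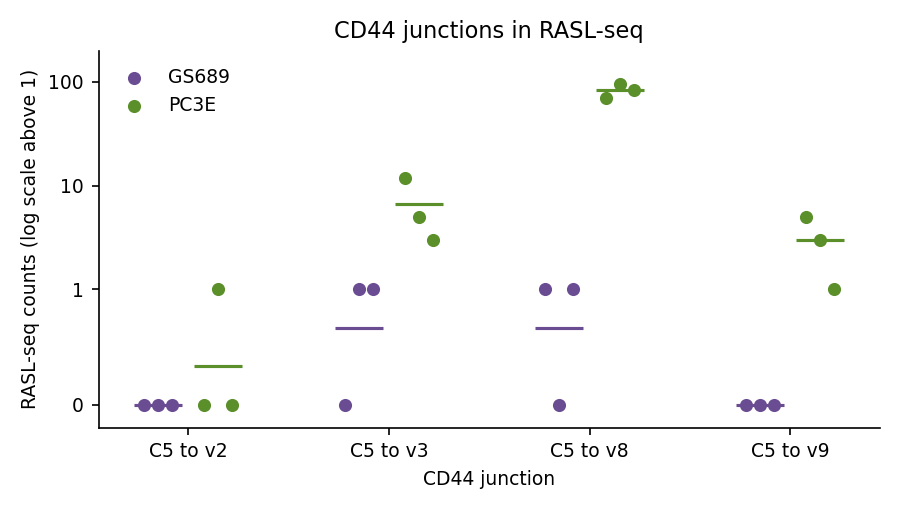
RASL-seq counts (vertical axis, log scale above 1) of the 4 measured CD44 junctions (horizontal axis) in each library of GS689 and PC3E, with lines at the line means. C5 to v8 lies at 70 to 96 counts in PC3E and at 0 or 1 in GS689.

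The 4 junctions summed to 1, 1 and 2 counts in GS689 and 87, 105 and 87 in PC3E, or 1.83 ± 1.23 CPM in GS689 and 112.4 ± 23.5 CPM in PC3E (counts scaled to the library total; SD, n = 3 each). With limma-voom this CD44 total fell by 5.65 on the log2 scale in GS689 (SE 0.492, adjusted p = 1.06e-05), and each GS689 library was below each PC3E library. It was the 5th largest fall of 1705 rows tested, where 13.2% of events were lower and 15.4% higher. The C5-v8-v9 event alone fell by 6.31 (SE 0.532, limma adjusted p = 8.31e-06). At 4 counts over the GS689 libraries the fitted change depends on how limma treats low counts; the ratio of counts was 67.09 with an exact interval of 25.91 to 248. Every event listed has a count in PC3E replicate 1, whereas 34 to 60 events have none in each other library. Without that replicate the CD44 total fell by 5.70, and the changes without any 1 library, PC3E replicate 2 included, lay between -6.08 and -5.39. Because C5 to C6 was not measured, the total counts transcripts with v2, v3, v8 or v9 after C5, not CD44 as a whole.

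Inclusion in these events could not be compared at this depth. In the C5-v8-v9 event, v8 was used in 2 of 2 counts summed over GS689, which allows 34.24% to 100%. In PC3E it was used in 93.33%, 96.97% and 98.81% of counts, or 249 of 258 when summed (Wilson interval 93.5% to 98.15%). No CD44 event passed the filter for the test of inclusion, in which 5.69% of 1124 events were called. With events of a mean of 1 count admitted, the difference at v8 was 3.63 percentage points (limma-moderated adjusted p = 0.918). Among the 4 junctions, C5 to v8 took 2 of 4 counts in GS689 and 89.2% of counts in PC3E, and in RNA-seq 31.5% of reads in set 2 and 57.8% in set 1.

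Other genes of the hyaluronan and CD44 pathway were taken as a list of 78, of which 22 had a RASL-seq event and 21 were tested for event totals. Of these, 4 were lower and 4 higher in GS689. Counted by event, 7 of 31 (22.6%) were lower and 7 (22.6%) higher, against 13.2% lower and 15.4% higher over all events tested, and some of these events are of the same gene. The median log2 change over the 31 events was 0.10, against 0.00 over all events. None of the 9 genes of hyaluronan synthesis and turnover was tested. Of the 12 hyaluronan binding genes 2 were tested, and VCAN, the large matrix proteoglycan versican, fell to 0, 1.19 and 3.24 CPM in GS689, against 118.5, 51.95 and 85.62 in PC3E (log2 change -5.73, limma adjusted p = 0.000132). Without GS689 replicate 1, which had 0, its change was -4.94, and without replicate 3 it was -6.42.

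Among the linkers of CD44 to the cytoskeleton, NF2, the tumour suppressor merlin, averaged 649 ± 66.9 CPM in GS689 and 901 ± 75.7 in PC3E (SD, n = 3 each; log2 change -0.48, limma adjusted p = 0.0221). EPB41, protein 4.1R, was higher in the event of its 129 nt exon, with 103.8 ± 17.2 CPM in GS689 and 39.7 ± 2.13 in PC3E (SD, n = 3 each; log2 change 1.34, limma adjusted p = 0.00118). Other EPB41 events did not pass, so this event does not give the level of the gene. Of the coreceptors and signalling genes, ARHGEF12, a RhoA exchange factor, was higher by 0.81 on the log2 scale (limma adjusted p = 0.01). Its change was -0.25 with inclusion counts alone (limma adjusted p = 0.748). SLC3A2, the CD98 heavy chain, changed by -1.13 on the log2 scale (limma adjusted p = 0.024). The calls for NF2 and SLC3A2 were lost without GS689 replicate 1 (limma adjusted p = 0.055 and 0.0896) or replicate 2 (0.0793 and 0.0945), that for NF2 without PC3E replicate 1 (0.0539) and that for SLC3A2 without PC3E replicate 3 (0.096). That for NF2 was also lost with skipping counts alone (log2 change -0.38, limma adjusted p = 0.244) and that for SLC3A2 with inclusion counts alone (-1.07, limma adjusted p = 0.0562).

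Of the regulators known to act on CD44 exons, 8 of 24 were tested. SMARCA2, the BRM subunit of the SWI/SNF complex, averaged 218 ± 18.8 CPM in GS689 and 424 ± 39.9 in PC3E (SD, n = 3 each; log2 change -0.97, limma adjusted p = 0.000646). With skipping counts alone its change was -0.41 and the call was lost (limma adjusted p = 0.234). MBNL1, a muscleblind splicing factor, was higher in GS689, by 0.87 on the log2 scale in the event of its 963 nt exon (limma adjusted p = 0.00479). In the inclusion test 3 of 25 list events (12%) in 17 genes changed, against 5.69% of all events tested. In EPB41 a 42 nt exon was included in 13.46%, 11.54% and 12.82% in GS689 and 2.73%, 1.67% and 4.40% in PC3E (limma-moderated adjusted p = 0.00794; 0.0647 without GS689 replicate 1). Its 63 nt exon changed by -7.5 percentage points (limma-moderated adjusted p = 0.00272; 0.0515 with limma on the log2 ratio at a pseudocount of 0.5). A 50 nt exon of MET, the hepatocyte growth factor receptor, was included in 22.36%, 22.44% and 21.76% in GS689 and 15.97%, 16.31% and 18.06% in PC3E (limma-moderated adjusted p = 0.00364). That of MET was not called with limma on the log2 ratio (adjusted p = 0.312 and 0.243 at pseudocounts of 0.5 and 5), and without PC3E replicate 1 its difference was 5 points after rounding and just under the minimum. In RNA-seq, 59 list genes had 624 events with 10 counts in each library, of which 7 (1.12%) had set 2 below and 12 (1.92%) had set 2 above, against 1.71% and 1.28% of the whole table.

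Events whose RASL-seq totals varied most like the CD44 total over the 6 libraries, by Pearson r of log2(CPM + 1) among 1647 events, were those of LSR (0.999), CBWD2 (0.997), TUFT1 (0.997), TRIM16L (0.993) and MCF2L (0.993). All 5 were lower in each GS689 library than in each PC3E library, and the 6 points share the difference between the lines. LSR, a tricellular junction protein, had 0, 0 and 1.62 CPM in GS689 and 73.1, 84.84 and 68.02 in PC3E. CBWD2 and TRIM16L have near-identical copies, and their counts are uncertain.

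Of the 12 epithelial markers listed, 4 had an event (OCLN, LSR, SPINT2 and LLGL2), and each had fewer counts in every GS689 library than in every PC3E library. OCLN, the tight junction protein occludin, had 88, 115 and 69 counts in GS689 and 249, 338 and 280 in PC3E. Of the 8 mesenchymal markers 2 had one: VIM, vimentin, had 4090, 3636 and 2579 counts in GS689 and 146, 130 and 191 in PC3E, and ZEB1 had 26, 12 and 6 in GS689 and 1, 0 and 0 in PC3E. ESRP1, ESRP2, CDH1 and all prostate luminal, neuroendocrine and haematopoietic markers had no event in this table. The epithelial markers with an event were thus lower in GS689, like the CD44 total, and VIM and ZEB1 were higher. The part of these markers in the CD44 difference was not tested.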

How the data were processed

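Per the labels' protocols, the cells went into Trizol and a TruSeq Stranded Total RNA kit was used. How RASL-seq was run and how events were counted is not given in the sources used here. The build hg19 and the tools STAR 2.5.2a and kallisto 0.43.0 come from the submitters' processing notes, which name no role for them. The authors deposited 1 table of counts per assay. Per the file headers, RASL-seq cells hold a pair of counts per library, and RNA-seq cells hold the inclusion or skipping counts of the 3 libraries of a numbered set, with effective lengths of 101 for skipping and mostly 202 for inclusion. Empty RASL-seq cells were read as 0, and 0 columns of per-sample values were left unused.

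The members, exon names, gene list and tests were chosen with earlier results of these data known. Events were matched to GENCODE release 29, on another build, by exon and intron lengths. In RASL-seq 1934 of 2023 and in RNA-seq 109246 of 114816 events matched 1 gene. RNA-seq inclusion counts add 2 junctions in events with an effective length of 202 for inclusion, and only these were used for subtraction. The counts of 47 CD44 junctions stood as skipping counts of other events, and 17 were found by subtraction. In 37 events of that length with both junctions known, the sum and the inclusion count differed by 0. Events of shorter exons did not enter this check, and there the junctions need not add up. In set 1 library 1, v8-v9-v10 had an inclusion count of 3666, with 1902 reads from v8 to v9 and 1820 from v9 to v10. The inclusion count of RASL-seq covers the upstream junction alone, since it equalled another event's skipping count in 51 of 51 pairs and matched by the downstream junction in 0 of 41.

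RASL-seq totals of each event were tested across all events with limma 3.58.1 (voom, trimmed mean scaling) in R 4.3.3, with about 10 counts in at least 3 libraries and 15 in all. CD44 entered as 1 summed row. Inclusion was tested with a quasi-binomial model moderated by limma, for events with a mean of 10 counts, 1 in each library and 10 of the rarer form. A call needs a Benjamini-Hochberg adjusted p under 0.05 and, for inclusion, 5 percentage points. In RNA-seq events, inclusion was corrected for length, and sets were called apart when no library overlapped and medians lay 5 points apart. Both tests were first tested on simulated data with known answers. The test of totals found 89.6% of 2-fold and 100% of 4-fold changes, with false calls at 3.14%. That of inclusion found only 52.7% of changed events, with false calls at 3.96%. Named genes were CD44, every list gene past a test up to 12, and the 5 genes closest to the CD44 total among events of at least 10 CPM. The values of 1 list gene past the test are not reported here. Alternatives were scaling, filters, form counted, model, replicate block, each library left out and, added after seeing the data, entering or leaving junctions alone.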

Additional observations from a re-analysis of the deposited data

How the results depend on the processing

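The CD44 total, the C5-v8-v9 event total and the count of CD44 events with set 2 below set 1 kept their direction and their side of the threshold, or their count within 1.5 times, in all 32 alternatives run. The count of pathway genes stayed within 1.5 times in 13 of 13. The count of 0 CD44 inclusion calls in RASL-seq shows no stability, since no CD44 event was tested in 9 of 10 alternatives. The CD44 total changed by between -6.21 and -5.39 on the log2 scale (limma adjusted p at most 0.000362), and skipping counts alone gave no value because CD44 did not pass the filter there. CD44 events with set 2 below set 1 numbered 16 with a minimum of 20 counts, 22 without length correction and 20 to 23 with 1 library left out. Inclusion over all paths moved by less than 1 SD of the 3 libraries in 84 of 90 alternatives. Those with 1 library left out could not reach this limit, since a median of 3 values then moves by less than their SD. The other 6 used entering or leaving junctions alone and were set 2 medians, where few reads limit every share. Of these, v5 went to 0.0887% with entering and 0.266% with leaving junctions, against 0.177%. Set 1 medians without library 1 fell from 30.73% to 22.16% at v3 and from 41.15% to 30.36% at v6. Without library 2 they were 31.23% and 43.66%. Replicate numbers did not clearly pair the libraries. Deviations of same-numbered libraries correlated at 0.244, 0.167 and 0.009. GS689 replicates 1 and 2 were nearest to the PC3E replicate of the same number, and GS689 replicate 3 to PC3E replicate 1 (0.052). With a replicate block the CD44 total changed by -5.65 (limma adjusted p = 4.82e-09), the C5-v8-v9 event by -6.30, calls of totals were 610 and of inclusion 88, pathway genes numbered 10 and, with no CD44 event tested, CD44 inclusion calls 0.

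Over the whole tables, calls of RASL-seq totals went to 284 with skipping and 313 with inclusion counts alone, against 488, and ranged from 337 to 588 without 1 library. Inclusion calls were 28 with limma on the log2 ratio at a pseudocount of 0.5, against 64. RNA-seq events with set 2 below were 2175 to 2528 without 1 library (2472 without set 2 library 2), against 1641, since fewer libraries have narrower ranges. ARHGEF12 reversed to -0.25 (limma adjusted p = 0.748) with inclusion counts alone, and SMARCA2, NF2 and SLC3A2 lost their calls with 1 form counted alone; the cause was not tested. In GS689, 4 counts limit every RASL-seq statement on CD44.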
